A study of Homo sapiens with 4 samples.

Results

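The genes described here write, erase and read acetyl groups on histone lysines, with the scaffolds and corepressors that carry these enzymes to chromatin. They were taken as a list of 45 symbols, and a probe belonged to the set when the annotation of the array named 1 of those symbols. Values were read for 43 of the 45, out of 19090 genes in all, and NCOA3 and NCOR1 were not analysed here. The 43 comprised 12 acetyltransferases, 2 p160 coactivators, 11 zinc-dependent histone deacetylases, 7 sirtuins, 8 bromodomain readers and 3 scaffolds or corepressors.

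The cells were Huh7, an established human hepatocellular carcinoma line. One group carried a scramble shRNA, the control, and the other an shRNA against ACOT12, with 2 arrays in each group. Both kinds of cells were stable lines obtained by puromycin selection, so the controls shared the vector and the drug, and no other treatment was given. The labels do not say whether a line was a pool or a clone, how many shRNA sequences were used, or whether replicate arrays stand for different cultures. The p-values therefore measure the spread between these arrays, which may be technical. The stated purpose was to look for genes downstream of ACOT12, a cytosolic enzyme that hydrolyses acetyl-CoA to acetate and coenzyme A.

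Histone acetyltransferases take their acetyl group from acetyl-CoA, the substrate of ACOT12. Deacetylases of the HDAC families remove it by a zinc-dependent reaction, and sirtuins remove acyl groups in a reaction that consumes NAD. Bromodomains bind acetylated lysines and recruit further complexes to active promoters and enhancers. In liver cells these enzymes act beside nuclear receptors, for which p160 proteins are coactivators and NCOR proteins corepressors.

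None of the 43 genes changed past the threshold, a limma p adjusted by Benjamini-Hochberg over all genes of 0.05, and every adjusted p was 1. The same threshold was passed by 0.00524% of all genes. No member had an unadjusted p under 0.05 either, against 1.76% of all genes, and the smallest was 0.0804, for HDAC8. All differences are given as log2 intensity in shACOT12 minus scramble cells after quantile normalization. They ran from -0.67 for SIRT4 to 0.42 for SIN3A. The 95% confidence interval included 0 for each member, and its half-width had a median of 0.708. For 31 members, or 72.1%, the whole interval lay inside a 2-fold change in either direction, as for 59.7% of all genes. Among members at or above the median brightness of all genes the share was 70.6%, against 67.3% of all genes of that brightness. The widest intervals, with a half-width of up to 1.07, belonged to members whose replicates lay far apart.

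Lower values in shACOT12 cells were more frequent than higher ones among the members, with 27 lower and 16 higher. In all genes 51.4% were higher, against 37.2% of the members, and the median difference was -0.08 for the members and 0.0078 for all genes. Without scramble replicate 2, 20 of the 43 members were higher, against 49.4% of all genes. The medians were then -0.096 for the members and -0.0041 for all genes. Leaving out any other array gave 15 to 18 members higher, against 49.3% to 54.4% of all genes. For 18 members the groups had no overlap. Of these, 12 were lower in both shACOT12 arrays than in both scramble arrays, or 27.9% of the 43, where 10.0% of all genes were so placed. The other 6 were higher in both, or 14%, where 11.5% of all genes were. Among genes at or above the median brightness of all genes, 12.8% did not overlap and were lower, against 29.4% of the 34 members of that brightness. These shares describe 4 arrays and are no test of the set.

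**Figure D1:**
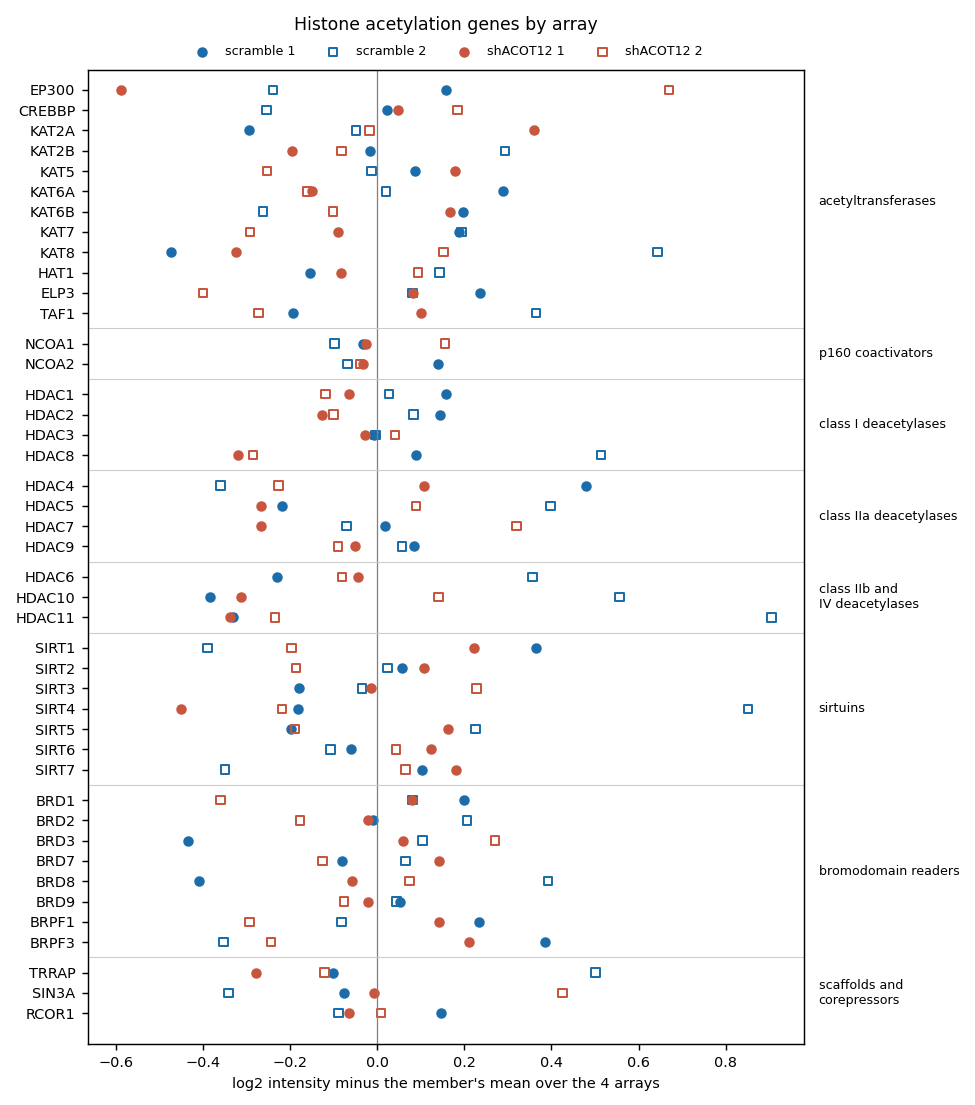
Log2 intensity of each of the 43 measured genes on each array, as the distance from that gene's mean over the 4 arrays (x axis); blue is scramble, red is shACOT12, filled circles are replicate 1 and open squares replicate 2. The open blue squares of HDAC11, SIRT4 and KAT8 lie far to the right, while for HDAC8, HDAC1, HDAC2 and KAT7 both red points lie to the left of both blue ones.

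The arrays themselves limit what can be read. The median absolute difference between 2 arrays over the members was 0.276 for the scramble pair and 0.211 for the shACOT12 pair. Between groups it ran from 0.173, for the arrays numbered 1, to 0.276. Replicates differed by more than 0.5 for 13 members in scramble and for 2 members, EP300 and HDAC7, in shACOT12 cells, and for 29% and 19.3% of all genes at or above the median brightness in those groups. Scramble replicate 2 held the highest value of 15 members and scramble replicate 1 that of 14, so 67.4% of the members peaked on a scramble array, against 43.9% of all genes. ACOT12 itself stood at 8.28 and 7.47 on the scramble and 7.58 and 7.37 on the shACOT12 arrays, with a difference of -0.40 (SE 0.35, adjusted p = 1). The groups overlapped for ACOT12, so a lower level of the targeted mRNA was not detected. Its only probe lay below the median brightness of all genes. The ACOT12 difference was 0.0079 without scramble replicate 1 and -0.80 without scramble replicate 2. Of 8 measured hepatocyte markers all 8 were at or above the median brightness of all genes, as were 2 of 6 fibroblast, 0 of 5 endothelial and 1 of 5 leukocyte markers.

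The acetyltransferases divide into the p300/CBP pair, the GCN5 family (KAT2A and KAT2B), the MYST family (KAT5 to KAT8) and others. Of the 12, 5 were higher and 7 lower, with a median difference of -0.12. KAT7, known as HBO1, which acetylates histones H3 and H4 with BRPF or JADE scaffolds, read 10.72 and 10.73 in scramble cells and 10.44 and 10.24 in shACOT12 cells. Both shACOT12 values lay below both scramble values, and the replicates within scramble were almost equal. The difference was -0.38 (SE 0.27, interval -1.04 to 0.28, limma adjusted p = 1), and it lay between -0.48 and -0.28 when each array was left out in turn.

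KAT6A, or MOZ, a MYST acetyltransferase of histone H3, read 12.96 and 12.70 in scramble and 12.53 and 12.51 in shACOT12 cells. The groups did not overlap here either, and the difference was -0.31 (SE 0.28). A second, dimmer probe of KAT6A gave 11.66 and 11.06 against 10.88 and 11.03, a difference of -0.41, again without overlap. KAT2A, or GCN5, the catalytic subunit of SAGA and ATAC, went the other way, with 13.50 and 13.74 in scramble and 14.15 and 13.77 in shACOT12 cells. Its difference was 0.34 (SE 0.30), and the nearest values of the 2 groups were only 13.74 and 13.77. KAT2B, or PCAF, its close paralog, had a difference of -0.28 with both shACOT12 values lower, and its dim second probe gave -0.22 with overlapping groups. The opposite signs of KAT2A and KAT2B were not tested as a difference between the genes.

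EP300 had the largest gap between replicates of the acetyltransferases. The gene encodes p300, a broad acetyltransferase of H3 and H4 that marks active enhancers. It read 11.16 and 10.76 in scramble and 10.41 and 11.67 in shACOT12 cells, so that 1 shACOT12 array was the lowest and the other the highest of the 4. The difference of 0.08 ran from -0.56 without shACOT12 replicate 2 to 0.70 without shACOT12 replicate 1. Its other probe gave -0.42. CREBBP, the paralog CBP, was steadier, with 16.64 and 16.36 against 16.67 and 16.80 and a difference of 0.23 (SE 0.28), but its second probe gave -0.11 with overlapping groups. HAT1, which acetylates newly made histone H4 in the cytoplasm, had a difference of 0.01 with overlapping groups. Its second probe was almost as bright, with a mean of 15.11 against 15.36, and gave 0.32 (SE 0.30) without overlap. The difference in the mean of the 2 HAT1 probes was 0.17. KAT5 (TIP60), KAT8 (MOF, the H4 lysine acetyltransferase of the MSL and NSL complexes) and TAF1 (the largest TFIID subunit) had differences of -0.07, -0.17 and -0.17 with overlapping groups. KAT6B and ELP3, the catalytic subunit of Elongator, were dimmer than the median gene and had differences of 0.07 and -0.32.

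Of the p160 coactivators, which bind liganded nuclear receptors and bring in p300 and CBP, NCOA1 read 12.93 and 12.87 in scramble and 12.94 and 13.12 in shACOT12 cells. The difference was 0.13 (SE 0.27), with 12.93 and 12.94 as the nearest values. The second NCOA1 probe gave 11.66 and 11.58 against 11.91 and 11.83, a difference of 0.25 without overlap. NCOA2 was below the median brightness, and its difference was -0.07.

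The histone deacetylases gave the largest share of lower values. Of HDAC1 to HDAC11, 9 of 11 were lower in shACOT12 cells, with a median difference of -0.17, and 0 of the 11 passed the threshold. Higher values made up 18.2% of the 11, against 51.4% of all genes. Groups did not overlap for 4 of the 11, HDAC1, HDAC2, HDAC8 and HDAC9, all lower with the brightest probe. That was 36.4% of the 11, against 10.0% of all genes and 12.8% of those at or above the median brightness. Other probes of HDAC2 and HDAC9 did not share it, as given below. The count of 9 lower rested largely on scramble replicate 2: without it 5 of 11 were lower and the median was 0.0059, while leaving out any other array gave 8 to 10 lower. The 3 class I enzymes HDAC1, HDAC2 and HDAC8 were lower with and without each array. With groups that do not overlap this nearly follows from the overlap itself, so it is no further check.

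Class I comprises HDAC1, HDAC2, HDAC3 and HDAC8, mostly nuclear enzymes. HDAC1 and HDAC2 are the paired catalytic subunits of the SIN3, NuRD and CoREST complexes, HDAC3 is the enzyme of the NCOR and SMRT corepressors, and HDAC8 acts outside these complexes and deacetylates the cohesin subunit SMC3. Of these 4 genes, 3 had lower values without overlap with their brightest probe and 1 had not, and none of the 4 passed the threshold. A link of these values to base content was not tested. The RefSeq windows around the annotated starts of the 4 genes, chosen after the values were seen, are shown only to describe base content. Each runs 5′ to 3′ from 250 bases before to 50 bases after the start on build GRCh38.p14, at chr1:32291833-32292132 (plus strand) for HDAC1, chr6:113971099-113971398 (minus) for HDAC2, chr5:141636800-141637099 (minus) for HDAC3 and chrX:72572794-72573093 (minus) for HDAC8. Capitals mark GC boxes (GGGCGG) and CCAAT boxes (CCAAT), searched on both strands.
HDAC1: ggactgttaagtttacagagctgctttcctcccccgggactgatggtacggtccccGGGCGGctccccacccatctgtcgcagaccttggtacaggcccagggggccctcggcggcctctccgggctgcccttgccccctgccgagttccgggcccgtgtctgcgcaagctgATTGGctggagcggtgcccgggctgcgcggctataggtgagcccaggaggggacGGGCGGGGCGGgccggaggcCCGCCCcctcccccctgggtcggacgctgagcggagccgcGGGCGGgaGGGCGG
HDAC2: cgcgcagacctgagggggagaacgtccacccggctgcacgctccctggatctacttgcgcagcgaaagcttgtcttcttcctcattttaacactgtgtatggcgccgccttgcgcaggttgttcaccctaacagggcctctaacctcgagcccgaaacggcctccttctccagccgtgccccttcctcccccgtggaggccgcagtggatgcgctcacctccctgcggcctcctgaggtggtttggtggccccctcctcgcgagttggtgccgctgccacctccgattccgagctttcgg
HDAC3: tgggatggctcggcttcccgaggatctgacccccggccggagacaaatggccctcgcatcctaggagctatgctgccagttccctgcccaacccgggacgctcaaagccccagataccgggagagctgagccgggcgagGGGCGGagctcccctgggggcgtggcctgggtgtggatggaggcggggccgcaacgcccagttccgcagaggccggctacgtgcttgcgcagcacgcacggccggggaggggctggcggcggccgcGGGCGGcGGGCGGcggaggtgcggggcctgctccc
HDAC8: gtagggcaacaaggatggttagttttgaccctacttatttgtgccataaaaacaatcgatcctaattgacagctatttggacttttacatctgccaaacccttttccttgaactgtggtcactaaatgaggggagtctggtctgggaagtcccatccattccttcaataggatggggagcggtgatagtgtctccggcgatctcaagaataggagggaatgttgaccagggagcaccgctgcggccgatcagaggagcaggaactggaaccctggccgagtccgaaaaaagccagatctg

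The HDAC1 window held 6 GC boxes, of which a pair overlap by a base, and 1 CCAAT box, and the HDAC3 window held 3 GC boxes. Neither motif occurred in the HDAC2 or HDAC8 windows. GC boxes were present in 45% of the 35116 promoter windows in the table and in 59.1% of the 66 windows of members, and CCAAT boxes in 34.6% and 24.2%. A TATA box (TATAAA), present in 11.5% of all windows, occurred in none of the 4. The HDAC8 window was poorest in CG dinucleotides, with 9 against 28, 24 and 31 for HDAC1, HDAC2 and HDAC3. The median was 14 over all windows and 29.5 over the 66 windows of members. These are matches of letters only, and the arrays did not measure binding or methylation at them.

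HDAC8 had the smallest p of all 43 members. Its brightest probe read 11.21 and 11.64 in scramble and 10.81 and 10.84 in shACOT12 cells, or 11.43 ± 0.30 and 10.82 ± 0.02 (mean ± SD, n = 2 each). The 2 shACOT12 values were nearly equal and lay below both scramble values. The difference was -0.60 (SE 0.29, interval -1.30 to 0.096), equal to 0.658 of the scramble level, and it did not pass the threshold (limma adjusted p = 1). The deposited intensities behind it were 2335 and 3275 in scramble and 1674 and 1921 in shACOT12 cells.

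HDAC8 was also the member with the most probes. All 5 had lower means in shACOT12 cells, with differences of -0.60, -0.22, -0.14, -0.53 and -0.56, and groups did not overlap for 4 of the 5. The fourth of these probes read 9.02 and 8.84 against 8.66 and 8.12, and the fifth 9.25 and 9.39 against 8.95 and 8.58. The probe with the smallest difference read 8.14 and 8.24 against 8.25 and 7.85, and its groups overlapped. The 4 probes other than the brightest lay below the median brightness of all genes, and probes of 1 gene on the same arrays share their RNA, so they are not replicates. Without scramble replicate 2 the HDAC8 difference was -0.39 and without scramble replicate 1 it was -0.81, so the scramble array left in moved it by over 1.5 times.

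HDAC2 read 13.55 and 13.49 in scramble and 13.27 and 13.30 in shACOT12 cells. The gap between groups was larger than either gap between replicates, and the difference was -0.23 (SE 0.27, adjusted p = 1). Its dimmer second probe, also above the median brightness of all genes, gave 0.13 with overlapping groups. The difference in the mean of the 2 HDAC2 probes was -0.05. HDAC1 read 15.25 and 15.12 against 15.03 and 14.97, a difference of -0.18 (SE 0.27). HDAC3, at 13.78 on both scramble arrays against 13.76 and 13.82, had a difference of 0.01 with an interval of -0.63 to 0.66. HDAC3 thus had the same reading in both groups to within 0.07 on any pair of arrays, although the interval does not show equality.

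Class IIa enzymes shuttle between nucleus and cytoplasm and repress MEF2 targets in muscle and other tissues. HDAC9 read 11.12 and 11.09 in scramble and 10.99 and 10.95 in shACOT12 cells, a difference of -0.14 (SE 0.27) without overlap. Its 2 dimmer probes gave 0.40 and -0.15, and the difference in the mean of its probes was 0.04, so the sign of HDAC9 depended on the probe. HDAC4 read 10.34 and 9.50 against 9.97 and 9.63, with a difference of -0.12 (SE 0.37) that became 0.30 without scramble replicate 1. The groups overlapped and the scramble arrays held both the highest and the lowest HDAC4 value. HDAC5 and HDAC7 were below the median brightness, at -0.18 and 0.05.

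The readings of the class IIb and IV enzymes depended on scramble replicate 2. This was not particular to them, since that array held the highest value of 15 members, KAT8 and SIRT4 among them. HDAC11, the sole class IV enzyme, known as a remover of longer fatty acyl groups, read 10.59 and 11.83 in scramble and 10.58 and 10.69 in shACOT12 cells. The second scramble array stood above the other 3, which lay within 0.10 of each other. The difference of -0.57 (SE 0.43) was therefore -1.19 without scramble replicate 1 and 0.04 without scramble replicate 2. A second HDAC11 probe, also above the median brightness, read 10.66 and 10.41 against 10.64 and 10.56, a difference of 0.07, and did not show the high value. HDAC10, a polyamine deacetylase, read 10.87 and 11.81 against 10.94 and 11.40, with a difference of -0.17 (SE 0.39) that was 0.30 without scramble replicate 2. HDAC6, the cytoplasmic deacetylase of tubulin, read 14.73 and 15.32 against 14.92 and 14.88, with a difference of -0.13 (SE 0.31) that was 0.17 without that array. In each of these 3 genes scramble replicate 2 was the highest value and the groups overlapped.

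**Figure D2:**
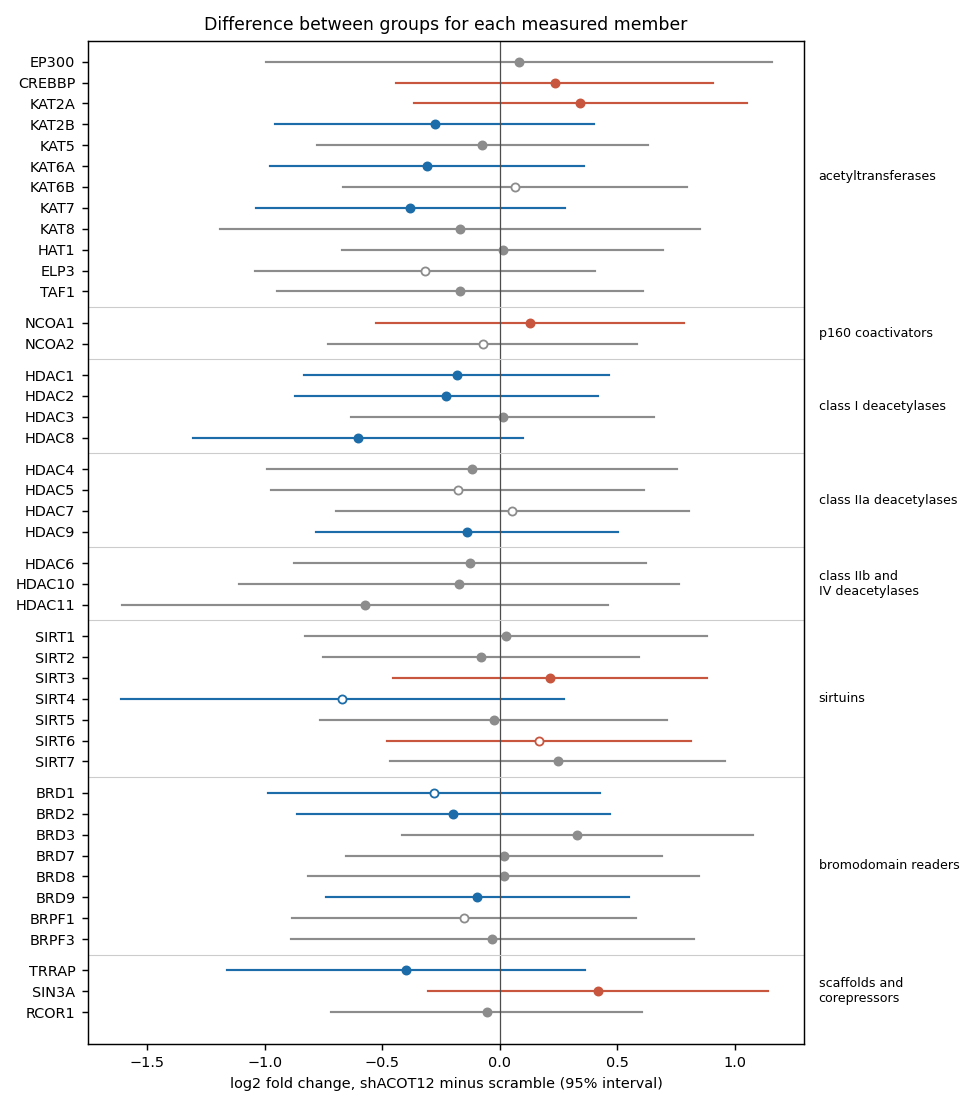
Log2 fold change of each measured gene, shACOT12 minus scramble (x axis), with its 95% interval from limma; red and blue mark genes whose 2 groups did not overlap, higher or lower in shACOT12, grey marks overlap, and open circles mark genes dimmer than the median of all genes. Every interval crosses 0, and HDAC8 comes nearest to excluding it, with an upper bound of 0.096.

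The sirtuins are NAD-dependent, with SIRT1, SIRT6 and SIRT7 mainly nuclear, SIRT2 mainly cytoplasmic, and SIRT3, SIRT4 and SIRT5 mitochondrial. Of the 7, 4 were higher and 3 lower, with a median of 0.03. SIRT3, the main mitochondrial deacetylase, read 11.58 and 11.72 in scramble and 11.75 and 11.99 in shACOT12 cells, a difference of 0.21 (SE 0.28) without overlap. The nearest values were 0.02 apart. A dim second probe gave 0.09 with overlapping groups.

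SIRT7, a nucleolar deacylase, read 11.86 and 11.41 against 11.94 and 11.82, a difference of 0.25 (SE 0.30) with overlapping groups. Scramble replicate 2 was the low value, and the difference was 0.02 without that array. SIRT2 read 12.11 and 12.08 against 12.16 and 11.87, a difference of -0.08 (SE 0.28). SIRT1, which deacetylates p53, PGC-1alpha and histones, read 11.11 and 10.35 against 10.96 and 10.55 and differed by 0.03, so replicates were much farther apart than groups. SIRT5, the mitochondrial desuccinylase, differed by -0.03.

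SIRT4 and SIRT6 were below the median brightness. SIRT4, a mitochondrial sirtuin that restrains glutamine use, had the largest absolute difference of any member, -0.67 (SE 0.40), with 8.85 and 9.88 in scramble and 8.58 and 8.81 in shACOT12 cells. Groups did not overlap, but the nearest values were 8.85 and 8.81, and the difference was -0.15 without scramble replicate 2 and -1.18 without scramble replicate 1. SIRT6, a chromatin-bound deacetylase of histone H3, differed by 0.17 without overlap.

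Among the bromodomain readers 3 were higher and 5 lower, with a median of -0.06. BRD2 and BRD3 belong to the BET family, whose paired bromodomains bind acetylated H4. BRD2 read 14.40 and 14.61 in scramble and 14.39 and 14.23 in shACOT12 cells, a difference of -0.20 (SE 0.28) without overlap, the nearest values being 14.40 and 14.39. BRD3 read 13.95 and 14.49 against 14.45 and 14.66, a difference of 0.33 (SE 0.31) with overlapping groups, and scramble replicate 1 was the low array. A second BRD3 probe, also above the median brightness, read 10.65 and 11.43 against 10.65 and 10.69, a difference of -0.37. The 2 BRD3 probes thus gave opposite signs, and the difference in their mean was -0.02.

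BRD9, a subunit of the non-canonical BAF remodeller, was the most even of the readers, with 13.02 and 13.01 in scramble and 12.95 and 12.89 in shACOT12 cells. The difference was -0.10 (SE 0.27), larger than either gap between replicates, and a dimmer probe of BRD9 gave -0.46, also without overlap. BRD7, of the PBAF remodeller, and BRD8, of the TIP60 complex, both differed by 0.02. BRD1, BRPF1 and BRPF3 are the scaffolds of the KAT6 and KAT7 acetyltransferases. BRPF3 differed by -0.03, and BRD1 and BRPF1, both below the median brightness, by -0.28 and -0.15.

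The remaining members hold complexes together. SIN3A, the scaffold that carries HDAC1 and HDAC2 to DNA-bound repressors, read 12.93 and 12.66 in scramble and 13.00 and 13.43 in shACOT12 cells. Both shACOT12 values were higher and the difference was 0.42 (SE 0.30, interval -0.30 to 1.14, adjusted p = 1), the highest of any member. A second SIN3A probe, just above the median brightness, read 9.25 and 9.64 against 9.06 and 9.15, a difference of -0.34 and likewise without overlap. The 2 probes therefore separated the groups in opposite directions, and the difference in their mean was 0.04.

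TRRAP, the scaffold shared by SAGA and TIP60, read 9.81 and 10.41 in scramble and 9.63 and 9.79 in shACOT12 cells. The difference was -0.40 (SE 0.32), with nearest values of 9.81 and 9.79, and it was -0.10 without scramble replicate 2. RCOR1, the CoREST scaffold that joins HDAC1 and HDAC2 to the demethylase KDM1A, read 12.49 and 12.25 against 12.28 and 12.35. Its groups overlapped and its difference was -0.06 (SE 0.28).

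**Figure D3:**
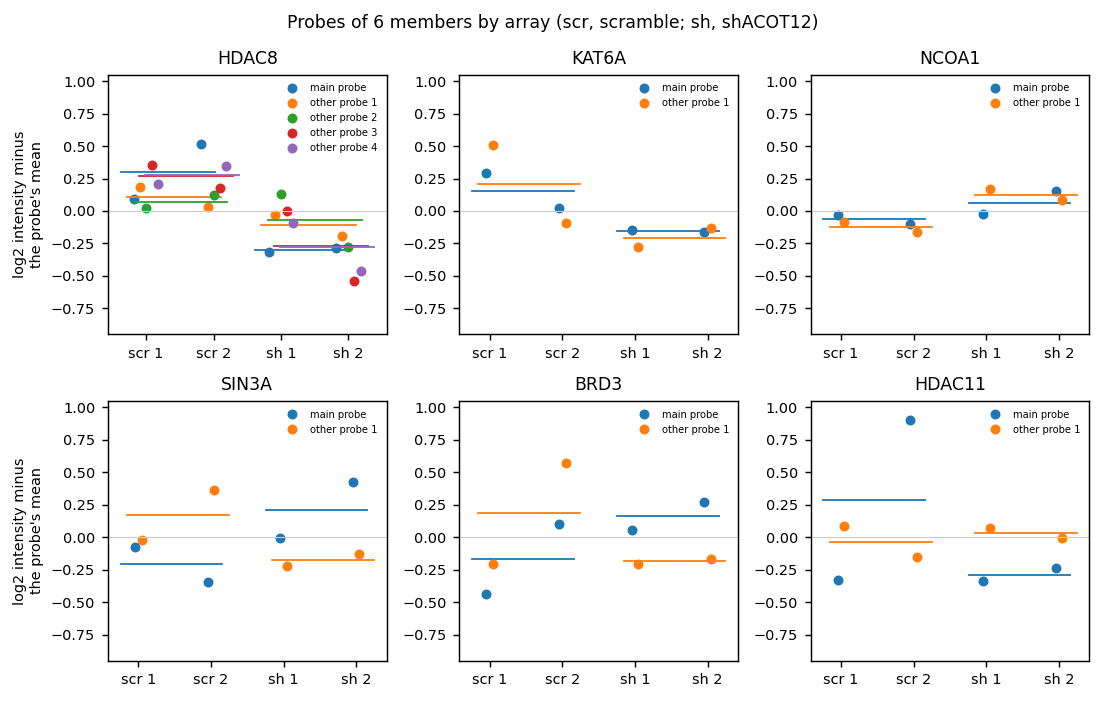
Log2 intensity of every probe of 6 genes on each array, as the distance from that probe's mean (y axis), with a short line at each group mean and 1 colour per probe. The probes of HDAC8, KAT6A and NCOA1 step in the same direction between groups, whereas those of SIN3A, BRD3 and HDAC11 step in opposite directions.

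Agreement between probes could be examined for 22 members with several probes, 70 probes in all for the 43 genes. Of the 27 probes not used for the main value, 19 had the sign of the brightest probe of their gene. In 14 of the 22 genes the probes all had 1 sign: HAT1, HDAC7, NCOA1 and SIRT3 were higher with each probe and BRD9, HDAC8, HDAC10, KAT2B, KAT6A, KAT8, NCOA2, RCOR1, SIRT5 and TAF1 lower. Only 8 of the 27 other probes reached the median brightness of all genes. Where sign depended on the probe, as for SIN3A, BRD3 and HDAC11, the gene's value is that of its brightest probe. The group difference was larger than both replicate gaps for 8 members, KAT6A, KAT7, HDAC1, HDAC2, HDAC8, HDAC9, SIRT6 and BRD9, or 18.6%, against 12.5% of all genes.

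Further lists of 4 kinds covered the partners and substrates of these enzymes, and 0 of their measured genes passed the threshold in either direction or had an unadjusted p under 0.05. Of 43 subunits of acetyltransferase complexes, 20 were higher and 23 lower, with a median of -0.02. EP400, the ATPase of the TIP60 complex to which TRRAP and KAT5 belong, read 10.45 and 10.87 in scramble and 10.05 and 9.98 in shACOT12 cells, a difference of -0.65 (SE 0.29) that was -0.40 in the mean of its 2 probes. MBIP, a subunit of ATAC, read 11.62 and 10.87 against 11.78 and 11.70, a difference of 0.49 (SE 0.34). Neither gene's groups overlapped, but scramble replicate 2 was the low array of MBIP, and its difference was 0.12 without that array and 0.86 without scramble replicate 1.

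Of 33 subunits of deacetylase complexes, 14 were higher and 19 lower, with a median of -0.05. KDM1A, the CoREST demethylase LSD1, read 13.09 and 13.62 in scramble and 12.79 and 12.95 in shACOT12 cells, a difference of -0.49 (SE 0.31) that was -0.22 without scramble replicate 2 and -0.75 without scramble replicate 1. GATAD2A, of NuRD, read 14.24 and 14.28 against 14.70 and 14.63, a difference of 0.40 (SE 0.27). The groups of GATAD2A did not overlap, but the mean of its 2 probes gave 0.15.

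Of 25 other acetyl-lysine readers, 14 were higher and 11 lower, with a median of 0.03. SMARCA2, an ATPase of the BAF remodellers with a bromodomain, read 8.58 and 9.06 against 9.46 and 9.54, a difference of 0.68 (SE 0.30) that was 0.44 without scramble replicate 1. DPF1, another BAF subunit, read 10.60 and 10.23 against 10.81 and 11.12, a difference of 0.55 (SE 0.30). Its sign depended on the probe, with -0.04 in the mean of its 2 probes. Of 18 genes for the supply or use of acetyl-CoA, NAD and the deacetylase inhibitor beta-hydroxybutyrate, 9 were higher and 9 lower, with a median of -0.04. The targeted gene ACOT12 was counted among the 9 lower. NAMPT, the rate-limiting enzyme of NAD salvage on which sirtuins depend, read 11.58 and 11.94 against 11.44 and 11.40, a difference of -0.33 (SE 0.29) that was -0.155 without scramble replicate 2 and -0.515 without scramble replicate 1. DLAT, of pyruvate dehydrogenase, read 13.47 and 13.23 against 13.47 and 13.92, a difference of 0.35 (SE 0.30). That of DLAT was 0.12 without shACOT12 replicate 2, 0.57 without shACOT12 replicate 1 and 0.17 in the mean of its 2 probes. Adjusted p was 1 for each of these 8 genes.

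**Figure D4:**
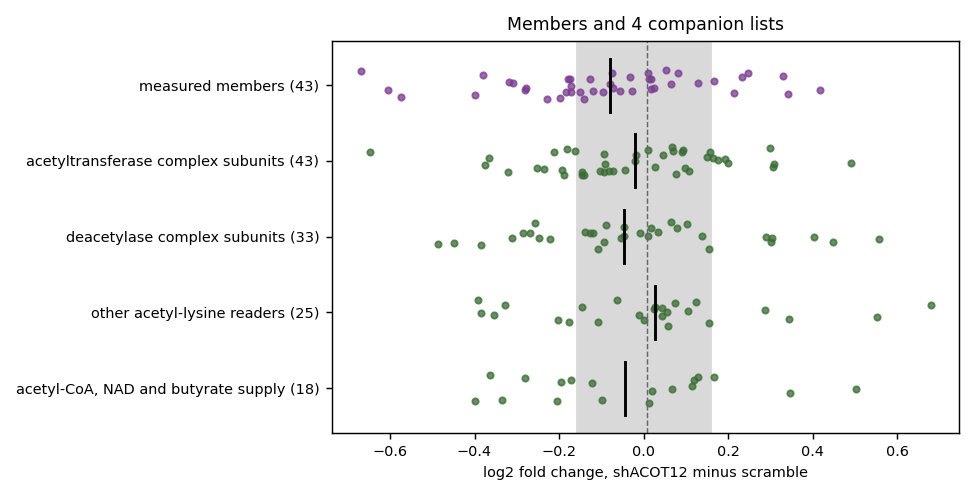
Log2 fold change, shACOT12 minus scramble (x axis), of the 43 measured genes and of 4 lists of partners, 1 point per gene with the list's median as a black bar; the grey band spans the middle 50% of all 19090 genes, -0.158 to 0.159, and the dashed line is their median. The members' median of -0.08 lies within that band.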

How the data were processed

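Total RNA was amplified to aminoallyl RNA and coupled to Cy5, 1 colour per array, per the labels' protocols. The authors deposited 1 linear intensity per probe and array. Scanner, background correction and normalization are not given in the sources used here. Array medians of log2 intensity differed by 0.462.

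Intensities under 1 were set to 1, converted to log2 and quantile normalized, which would hide a shift of most genes. Of 28264 probes, 25893 carried 1 gene symbol, 0 several and 2371 none, from the platform's annotation, and 25893 were matched by gene identifier to RefSeq (GRCh38.p14, names only). The probe with the highest mean stood for its gene. Depth does not apply to arrays, and no detection flags were used, so the number of arrays limits precision. An exact permutation test of 2 against 2 arrays cannot go below a two-sided p of 0.333.

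Groups were compared across all genes with limma 3.58.1 in R 4.3.3 (lmFit, eBayes, 2 residual and 4.69 prior degrees of freedom, two-sided, Benjamini-Hochberg). The fit was tested on simulated data in which the added differences were larger than that of any member. The simulated arrays had no effect shared across genes. Differences of the size seen here were therefore not tested. Intervals are 95% and pool the spread over genes.

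Members, partner lists and marker lists were chosen with earlier results of these data known. Values by array were given for the 3 members of each role with the smallest p among those at or above the median brightness of all genes, for members whose probes at that brightness gave opposite signs over 0.5 apart, and for the 2 such genes of each partner list; EP300, CREBBP, HDAC3, SIRT1 and SIRT4 were added after their values were seen. The alternatives were 3 scalings, 2 priors, a replicate block, a filter, a floor, the mean of probes and leaving out each array.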

Additional observations from a re-analysis of the deposited data

How the results depend on the processing

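With 2 arrays per group these data can show only large changes, and signal over background was not analysed here. The number of members past the threshold was 0 in the main fit and in all 13 alternatives. The count of all genes past it was 1, and it was 0 with values as deposited, 75th percentile scaling, cyclic loess and a floor at the 20th percentile, where limma gave 157, 180, 308 and 672 genes at an unadjusted p under 0.05. It was 3 with an intensity trend in the prior. The replicate number as a block gave 25 genes and 0 members. The numbers are not stated to mark a shared culture, and the differences between replicates 1 and 2 correlated across genes between the groups with r = 0.183 over all genes, 0.28 over genes at or above the median brightness and 0.305 over the 43 members. Without each single array the count was 0, with 255 to 761 at an unadjusted p under 0.05. With the raised floor limma gave an unadjusted p under 0.05 for 5 of the 43 members, against 672 of all 19090 genes. The smallest of these was 0.0138, for HDAC2, whose limma p in the main fit was 0.4278. The HDAC2 difference was -0.2278 in both fits, so the spread limma used had changed and the difference had not. The 5 members are therefore not read as a result about the set. Under each other alternative that kept all 4 arrays limma gave 0 such members.

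The number of members with higher values was 14 to 20 and their median -0.15 to -0.06 over the alternatives. Of the 43 members, 19 kept their sign under each alternative that held them, 7 higher and 12 lower. Among these were KAT6A, KAT7, HDAC1, HDAC2 and HDAC8. Their groups did not overlap, so signs kept without single arrays were nearly fixed for them and no further check. ELP3, SIRT6 and BRD1, also among the 19, were left out by the filter of dim genes and had no value there. Of 273 recomputed values of the 21 genes named by rule, 263 kept their sign and 10 reversed, none of them past the threshold, and the cause was not tested. The 2 priors, the replicate block, the filter and the floor left all 21 differences at their main values. Signs kept under these settings were therefore no check. With the mean of probes HDAC9 gave 0.037 and BRD3 -0.020. Leaving out single arrays turned the sign of 6 genes: HDAC4 ranged from -0.54 to 0.30 and RCOR1 from -0.18 to 0.059 (lower values without scramble replicate 2, higher without scramble replicate 1). HDAC6 ranged from -0.42 to 0.17, HDAC10 from -0.64 to 0.30 and HDAC11 from -1.19 to 0.044 (lower without scramble replicate 1, higher without scramble replicate 2). SIRT2 ranged from -0.23 to 0.066 (without shACOT12 replicates 1 and 2). Of the other named members, ranges without single arrays that kept their sign were 0.155 to 0.53 for KAT2A, -0.45 to -0.18 for KAT6A, 0.095 to 0.33 for SIRT3, 0.019 to 0.47 for SIRT7, -0.30 to -0.093 for BRD2, 0.059 to 0.61 for BRD3 and 0.20 to 0.63 for SIN3A, which gave 0.037 in the mean of its probes. HDAC10 also gave 0.055 without shACOT12 replicate 1 and HDAC4 0.049 without shACOT12 replicate 2.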
